A study of Homo sapiens with 18 samples.

Results

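The data compared EpCAM+ cells of the hepatocellular carcinoma (HCC) line Huh1 that had been exposed to 1 µM 5-fluorouracil (5-FU) for 48 hours with EpCAM+ control cells of the same line. The members were chosen by their labels, as the 3 arrays of Huh1 with 5-FU and the 3 arrays of Huh1 control, 6 of 18 arrays in all. Huh1 is a human liver cancer line, EpCAM is a surface protein used to enrich tumor-initiating cells (TICs) of such lines, and the EpCAM+ cells were isolated by fluorescence-activated cell sorting after the drug exposure. The sources used here do not say what the control cells received. Per the methods, each triplicate came from independent experiments. The other arrays held Huh1 cells exposed to 0.1 µM disulfiram (DSF) and the same 3 conditions in the line Huh7. The study asked how EpCAM+ HCC cells respond to DSF and to 5-FU, and the comparison here gives the 5-FU response in a single line.

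5-FU is a pyrimidine analog that cells convert to fluorinated nucleotides. One of these blocks thymidylate synthase, the enzyme that makes the thymine nucleotide for DNA, and others enter DNA and RNA, where they disturb repair and the processing of ribosomal RNA. Cells that meet this damage commonly stop in the cell cycle, and p53, a transcription factor that acts on genes of arrest and death, is among the known responders.

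Each array was a one-color Agilent array. The value of a gene is the log2 signal of its brightest tested probe minus the log2 75th percentile of all probes on the array, so that a value of 0 is the level of that percentile. Values are given for replicates 1, 2 and 3 in this order, levels are not compared between genes, and all changes are log2 differences of 5-FU minus control. Between 59.87% and 61.16% of 42405 probes were well above background on the control arrays, and between 63.96% and 66.45% on the 5-FU arrays. No spot was saturated. All 10 hepatocyte or HCC marker genes were above background on all 6 arrays, with a summed level (linear signal over the 75th percentile) of 821 to 953 in control and 741 to 922 with 5-FU. The defining markers of fibroblasts were mostly low, with 1 of 7 above background on all 6 arrays and a sum of 0.989 to 1.54 in control and 1.41 to 2.23 with 5-FU. Leukocyte markers summed to 4.52 to 5.82 and 5.48 to 6.27 (4 of 6 above background on all arrays), endothelial markers to 0.514 to 0.631 and 0.366 to 0.6 (2 of 5), and biliary markers to 208 to 216 and 190 to 216 (4 of 5). Their part in the results was not tested. In RNA from a cell population, fewer cells of a type and less RNA per cell cannot be told apart.

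The replicates did not stand at equal distances. Replicates 2 and 3 of the control differed by a robust SD of 0.0476 (log2) over 10292 bright probes, and those of 5-FU by 0.0309. The spread between repeated spots of a probe within an array was 0.0485 for the control pair and 0.0466 for the 5-FU pair. These replicates therefore differed by less than the spot noise and were counted as 1 sample. Replicate 1 stood apart from them by 0.0988 to 0.103 in control and by 0.138 to 0.145 with 5-FU. A change given for replicate 1 is its 5-FU array minus the control array of the same number, 1 array against 1. A change given for replicates 2 and 3 is the mean of their 5-FU arrays minus that of their controls. Whether the numbers pair the samples is not known. A gene was called higher or lower only where the adjusted p was below 0.05 in the same direction in 2 limma fits, the first over all 18 arrays and the second with such near-identical arrays averaged. For a named gene, both adjusted p values are printed in this order. All 6 arrays lay on 1 slide.

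Of 14915 genes measured above background on at least 1 of the 6 arrays, 2278 (15.3%) were called higher and 2327 (15.6%) were called lower with 5-FU. The median change over these genes was -0.00433. The rises reached further than the falls. Beyond 2-fold there were 802 rises and 417 falls, and beyond 8-fold 29 rises and 12 falls. The 18-array fit alone gave 4071 (27.3%) higher and 4215 (28.3%) lower genes, and the 5-FU and control arrays did not overlap for 9387 genes (62.9%). These shares are the background for the gene groups below.

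All changes are relative to the bulk of the probes on an array. Against the RNA spike-ins added to each sample, the 75th percentile stood at -3.231 to -3.269 on the control arrays and at -2.412 to -2.453 on the 5-FU arrays. Scaling on the spike-ins adds 0.828 to every change, so that a fall smaller than 0.828, and the median of each gene group that lay below 0 by less than that, is above 0 under that scaling. Such falls are falls against the other genes of the array, and whether the RNA of these genes fell per cell cannot be told apart from the shift of the whole array.

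**Figure D1:**
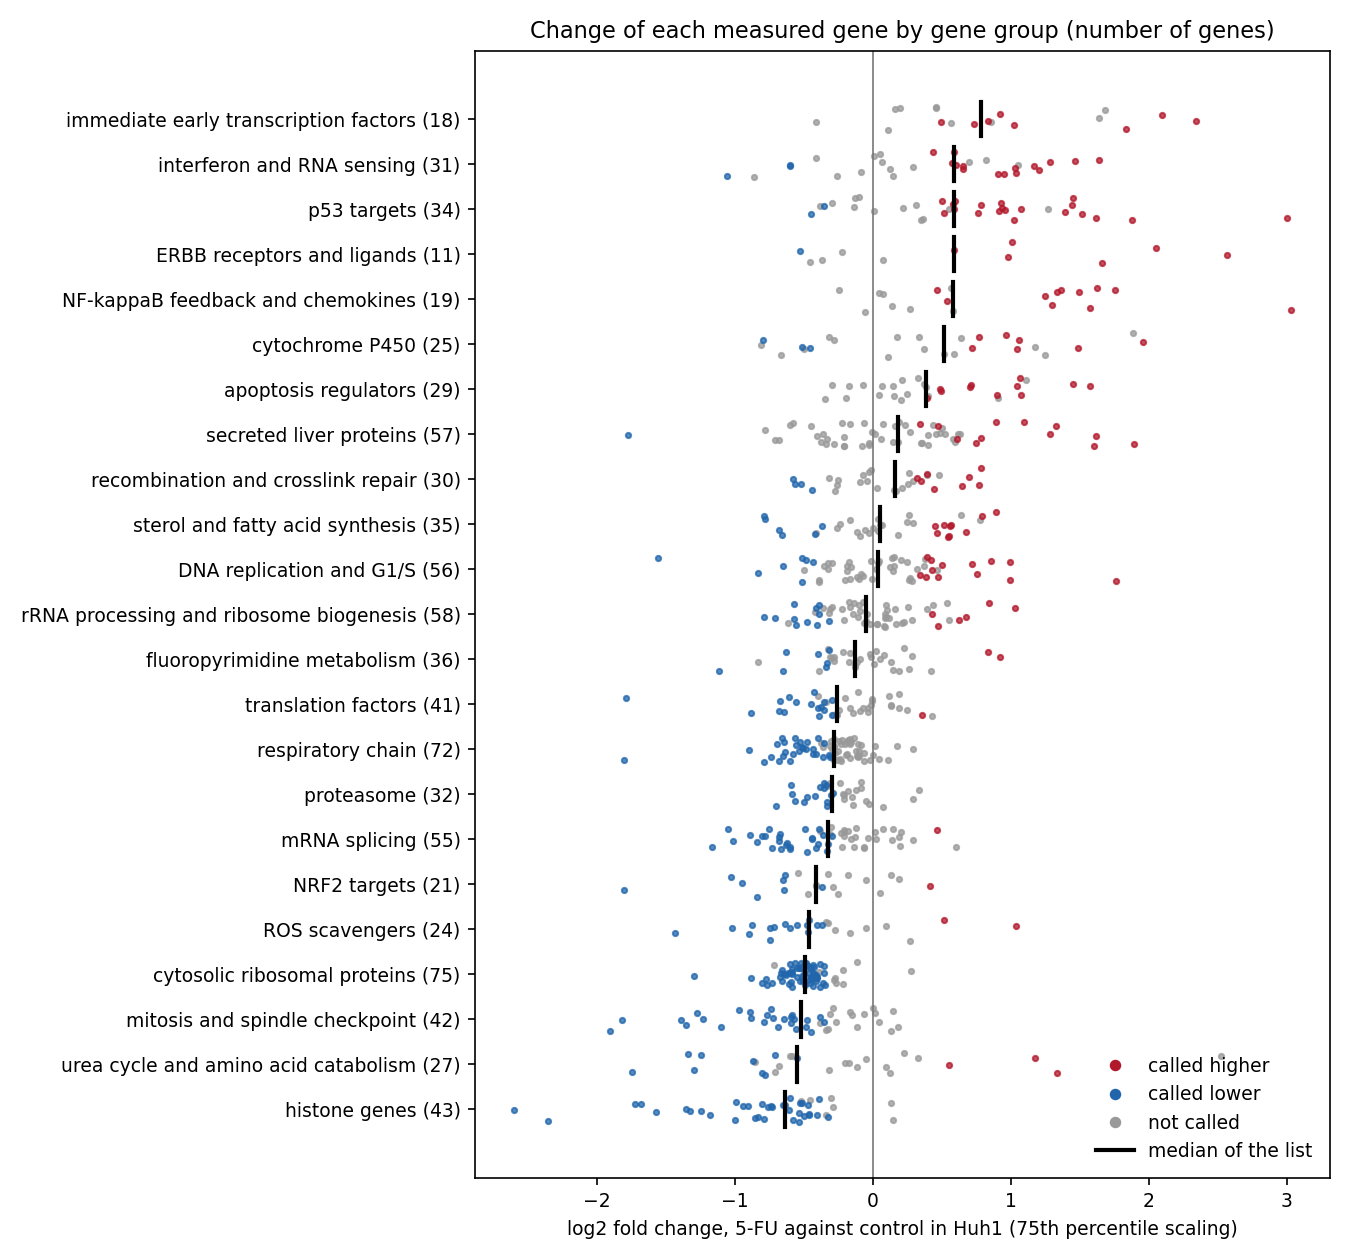
Log2 fold change of each measured gene, 5-FU against control in Huh1, by gene group (rows, number of genes in brackets). Red and blue points are genes called higher and lower, gray points were not called, and the black bar is the group median. Immediate early, interferon, p53 and ERBB genes lie mostly to the right of 0, and histone, mitosis and cytosolic ribosomal protein genes to the left.

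The cell cycle genes divided by phase. Genes of mitosis and histone genes fell, whereas genes of DNA replication went both ways. Mitotic genes of human cells often carry a CHR element (TTTGAA) in their promoters, genes of the G1/S transition an E2F site, and histone genes a CCAAT box. The sequences that follow are the 150 bases directly before the start sites of 5 of these genes. They are shown since the groups differ in the shares of these elements (RefSeq promoters, build GRCh38.p14, 5′ to 3′ on the strand of the gene). Capitals mark TTTGAA in PLK1 and CCNB2, the E2F site in CDC6 and CDT1, and CCAAT in H1-5, in either orientation. CCAAT also occurs in the sequences of PLK1, CCNB2 and CDC6, where it is not marked.
PLK1 (chr16:23678739-23678888, plus strand): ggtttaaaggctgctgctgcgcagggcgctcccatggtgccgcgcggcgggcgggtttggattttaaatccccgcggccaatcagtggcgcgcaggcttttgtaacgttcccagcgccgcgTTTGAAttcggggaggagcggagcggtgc
CCNB2 (chr15:59104996-59105145, plus strand): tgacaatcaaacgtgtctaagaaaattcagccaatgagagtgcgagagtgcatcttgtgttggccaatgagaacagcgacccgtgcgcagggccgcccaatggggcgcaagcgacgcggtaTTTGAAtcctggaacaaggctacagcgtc
CDC6 (chr17:40287729-40287878, plus strand): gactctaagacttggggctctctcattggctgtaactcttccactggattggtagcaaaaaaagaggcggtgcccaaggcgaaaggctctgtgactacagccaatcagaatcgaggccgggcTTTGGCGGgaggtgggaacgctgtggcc
CDT1 (chr16:88803639-88803788, plus strand): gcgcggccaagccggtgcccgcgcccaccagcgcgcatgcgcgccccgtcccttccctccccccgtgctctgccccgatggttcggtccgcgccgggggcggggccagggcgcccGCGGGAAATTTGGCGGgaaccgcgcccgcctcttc
H1-5 (chr6:27867589-27867738, minus strand): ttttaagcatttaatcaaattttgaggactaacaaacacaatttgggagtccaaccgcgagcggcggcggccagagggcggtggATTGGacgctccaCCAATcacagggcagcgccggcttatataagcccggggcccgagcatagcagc

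Over the 300 bases from 250 before to 50 after the start, TTTGAA stood on either strand in 22 of 38 mitosis genes with a promoter in the table (57.9%), in 1 of 46 replication and G1/S genes (2.17%) and in 15.4% of all 27305 promoters. An E2F site, taken as TTTGGCGC, TTTGGCGG or TTTCCCGC, stood in 22 of 46 replication and G1/S genes (47.8%), in 5 of 38 mitosis genes (13.2%), in 0 of 42 histone genes and in 2.95% of all promoters. CCAAT stood in 38 of 42 histone promoters (90.5%) against 35.7% of all, and the TATA box TATAAA in 28 (66.7%) against 12%. CCAAT was not particular to histone genes. It also stood in 29 of 38 mitosis genes (76.3%) and in 26 of 46 replication and G1/S genes (56.5%). TTTGAA also stood in 12 of 42 histone genes (28.6%). The searched motifs did not overlap in their letters. These matches describe the sequence and say nothing about the binding of a factor in these cells.

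Of 42 measured genes of mitosis and the spindle checkpoint, 26 fell and none rose, with a median change of -0.522. Among 21 genes of the kinetochore, spindle and cohesion 17 fell, among 14 mitotic kinases and cyclins 6, and among 7 subunits and activators of the anaphase promoting complex 3. PLK1, the kinase that drives entry into and progress through mitosis, was at 0.40, 0.62 and 0.56 on the control arrays and -1.56, -1.27 and -1.30 on the 5-FU arrays. All 5-FU arrays lay below all control arrays. The change was -1.90 ± 0.09 (SE), adjusted p = 4.84e-09 and 0.000321. KIF20A, a kinesin of the central spindle and cytokinesis, was at 1.51, 1.45 and 1.39 on the control arrays and -0.53, -0.27 and -0.31 on the 5-FU arrays, again without overlap, and changed by -1.82 ± 0.08 (SE), adjusted p = 4.93e-09 and 0.000325. CCNB2, a B-type cyclin that partners CDK1, was at 4.30, 4.13 and 4.11 on the control arrays and 2.86, 2.77 and 2.74 on the 5-FU arrays, and its change was -1.39 ± 0.07 (SE), adjusted p = 1.6e-08 and 0.000668. CCNB1 followed at -1.35 (adjusted p = 1.98e-08 and 0.000668), and PTTG1, the securin that holds back sister chromatid separation, at -1.27 (adjusted p = 6.59e-08 and 0.00083). CENPE, a kinetochore motor, fell by 1.23 (log2), and AURKA, a centrosome kinase, by 1.10. CCNB3, a further cyclin, changed by -2.41 (adjusted p = 2.69e-08 and 0.000631). In each of these genes every 5-FU array was below every control array.

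The 56 genes of DNA replication and the G1/S transition had a median of 0.039, with 13 higher and 7 lower. CDC6, which loads the replicative helicase at origins, was at -1.83, -2.07 and -2.09 on the control arrays and -1.27, -1.05 and -1.10 on the 5-FU arrays. The groups did not overlap, and the change was 0.86 ± 0.08 (SE), adjusted p = 1.08e-06 and 0.0038. CDT1, its partner in licensing, rose by 0.76 (adjusted p = 3.12e-06 and 0.00522), and MCM10, which acts when origins fire, by 0.40. CCNE2, the cyclin that activates CDK2 at the G1/S transition, rose from 0.16, -0.13 and -0.24 to 1.04, 0.86 and 0.86, with all 5-FU arrays above all control arrays. CDK2 itself changed by 0.38 (adjusted p = 0.000407 and 0.0362). The inhibitors of G1 kinases moved in both directions. CDKN2B (p15) changed by 1.76 ± 0.20 (SE), adjusted p = 8.46e-06 and 0.00423, and CDKN2C (p18) by -1.56 ± 0.21 (SE), adjusted p = 2.95e-05 and 0.0107. CDKN1C (p57) was not well above background on any control array and was so on all 5-FU arrays, and it rose at least 1.996-fold, a call lost under the normexp background correction. CCNA2, the cyclin of S and G2 phase, changed by -0.83 (adjusted p = 1.68e-05 and 0.0106). Of the helicase genes, CDC45 changed by -0.52 (adjusted p = 0.000507 and 0.0451) and MCM3 by -0.49 (adjusted p = 3.62e-05 and 0.0173), so that licensing genes rose in 5 cases and fell in 2 of 16.

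Of 30 genes of recombination and crosslink repair 8 rose and 4 fell, with a median of 0.161. The 4 rises among 19 genes of recombination and mismatch repair were XRCC3 (0.78 (adjusted p = 1.4e-07 and 0.00174)), BRCA2 (0.77 (adjusted p = 3.1e-07 and 0.00222)), EXO1 (0.70 (adjusted p = 7.24e-06 and 0.00741)) and BRCA1 (0.65 (adjusted p = 7.33e-06 and 0.00726)). BRCA1, BRCA2 and XRCC3 act in the repair of breaks by homologous recombination, and EXO1 is a nuclease of mismatch repair and end resection. Each of these was higher on every 5-FU array than on any control array. In the Fanconi pathway FANCD2, FANCI, FANCC and UBE2T rose and FANCE, FANCF, FANCG and FANCM fell, out of 11, with changes between -0.58 and 0.44. FANCC and FANCD2 each had 1 probe that passed the 18-array fit in the opposite direction, and on the median of its probes FANCC was at -0.278 (adjusted p = 0.00033). PIF1, a helicase that resolves DNA structures at forks, had one of the deepest falls of the data, from 0.97, 0.77 and 1.10 to -2.55, -1.85 and -1.86, a change of -3.04 ± 0.17 (SE), adjusted p = 2.31e-08 and 0.00045.

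**Figure D2:**
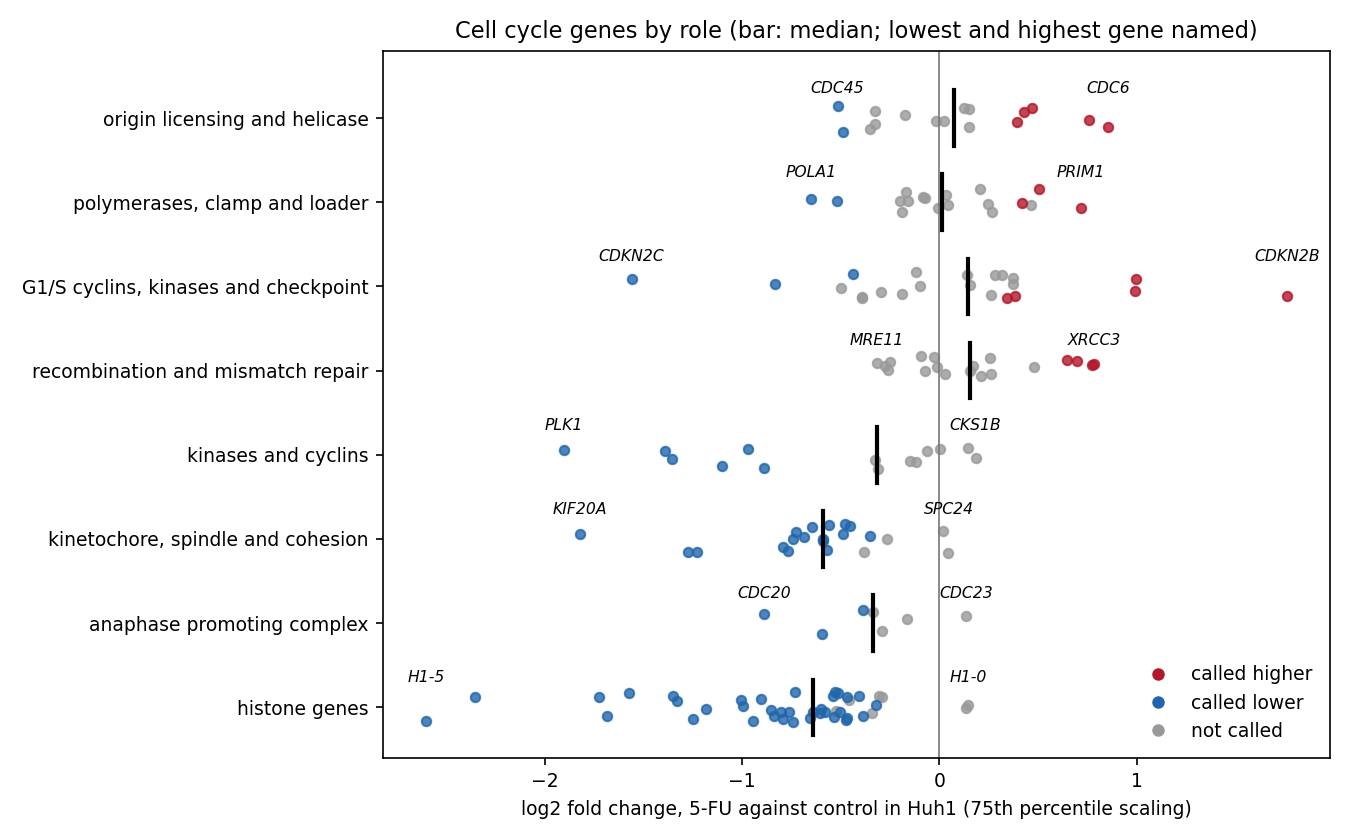
Log2 fold change, 5-FU against control in Huh1, of cell cycle genes by role (rows). Red and blue points are genes called higher and lower, gray points were not called, bars are medians, and the lowest and highest gene of each role is named. Kinetochore genes have a median of -0.589 and histone genes of -0.639, and the 3 replication roles lie around 0.

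Histone genes fell broadly. Of 43 measured histone genes 36 were called lower and none higher, and the median was -0.639. H1-5, a linker histone, was at 2.18, 2.17 and 2.12 on the control arrays and -0.20, -0.61 and -0.51 on the 5-FU arrays. All 5-FU arrays lay more than 2 log2 units below the lowest control array, and the change was -2.60 ± 0.11 (SE), adjusted p = 4.6e-09 and 0.000321. H2BC6 was at 0.62, 0.25 and 0.21 on the control arrays and -1.81, -2.16 and -2.02 on the 5-FU arrays and changed by -2.35 ± 0.15 (SE), adjusted p = 7.08e-08 and 0.000899. H2AC16, a histone H2A gene next to H1-5 on chromosome 6, changed by -1.73 ± 0.16 (SE), adjusted p = 1.3e-06 and 0.00285, with replicate 1 less far down than the other two 5-FU arrays. Histone genes are near-identical copies and lie in clusters, so that probes of different members may share signal. The medians were -0.658 in replicate 1 and -0.632 in replicates 2 and 3.

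Most targets of p53 rose. Of 34 measured p53 targets 20 were called higher and 2 lower, with a median of 0.591. Among 15 targets of arrest and growth 10 rose, and among those of cell death 9 rose and 1 fell. GDF15, a secreted stress cytokine, was at 4.20, 4.78 and 4.81 on the control arrays and 7.33, 7.71 and 7.76 on the 5-FU arrays. Every 5-FU array was more than 2 log2 units above every control array, and the change was 3.00 ± 0.15 (SE), adjusted p = 1.22e-08 and 0.000438. TP53INP1, a stress-induced regulator of p53, was at 0.54, 0.88 and 0.83 on the control arrays and 2.44, 2.76 and 2.69 on the 5-FU arrays, and changed by 1.88 ± 0.12 (SE), adjusted p = 7.56e-08 and 0.00088. CDKN1A (p21), the inhibitor of cyclin-dependent kinases that carries out p53-dependent arrest, was at -1.53, -1.88 and -1.88 on the control arrays and -0.87, -0.67 and -0.67 on the 5-FU arrays, without overlap, and changed by 1.03 ± 0.11 (SE), adjusted p = 3.69e-06 and 0.00606. PLK3 and PLK2, stress-responsive polo-like kinases, rose by 1.62 and 1.39, and GADD45A, which binds PCNA after DNA damage, by 1.52. PHLDA3, an inhibitor of AKT, changed by 1.44 (adjusted p = 0.00012 and 0.00869), BTG2, an antiproliferative protein, by 0.93 (adjusted p = 0.000605 and 0.0161), AEN, an apoptosis-enhancing nuclease, by 0.94 (adjusted p = 3.58e-06 and 0.00494), and DDB2, the damage sensor of nucleotide excision repair, by 0.79 (adjusted p = 1.31e-06 and 0.005).

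Some targets did not follow. In the first fit alone 25 of the 34 were higher and 4 lower. MDM2, the ubiquitin ligase that degrades p53, was at -0.91, -0.90 and -0.87 on the control arrays and -0.76, -0.17 and -0.11 on the 5-FU arrays. The 5-FU arrays lay above the control arrays, with replicate 1 closest to them, and MDM2 passed the first fit but not the second (0.55 (adjusted p = 0.00419 and 0.127)), so that it was not called. FAS, a death receptor, was close to background in control and was likewise not called (1.27 (adjusted p = 0.00187 and 0.0515)). XPC, a sensor of DNA lesions, and TP53I3, a quinone oxidoreductase, were the 2 targets called lower, at -0.45 (adjusted p = 8.32e-05 and 0.0287) and -0.35 (adjusted p = 0.00109 and 0.0453).

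**Figure D3:**
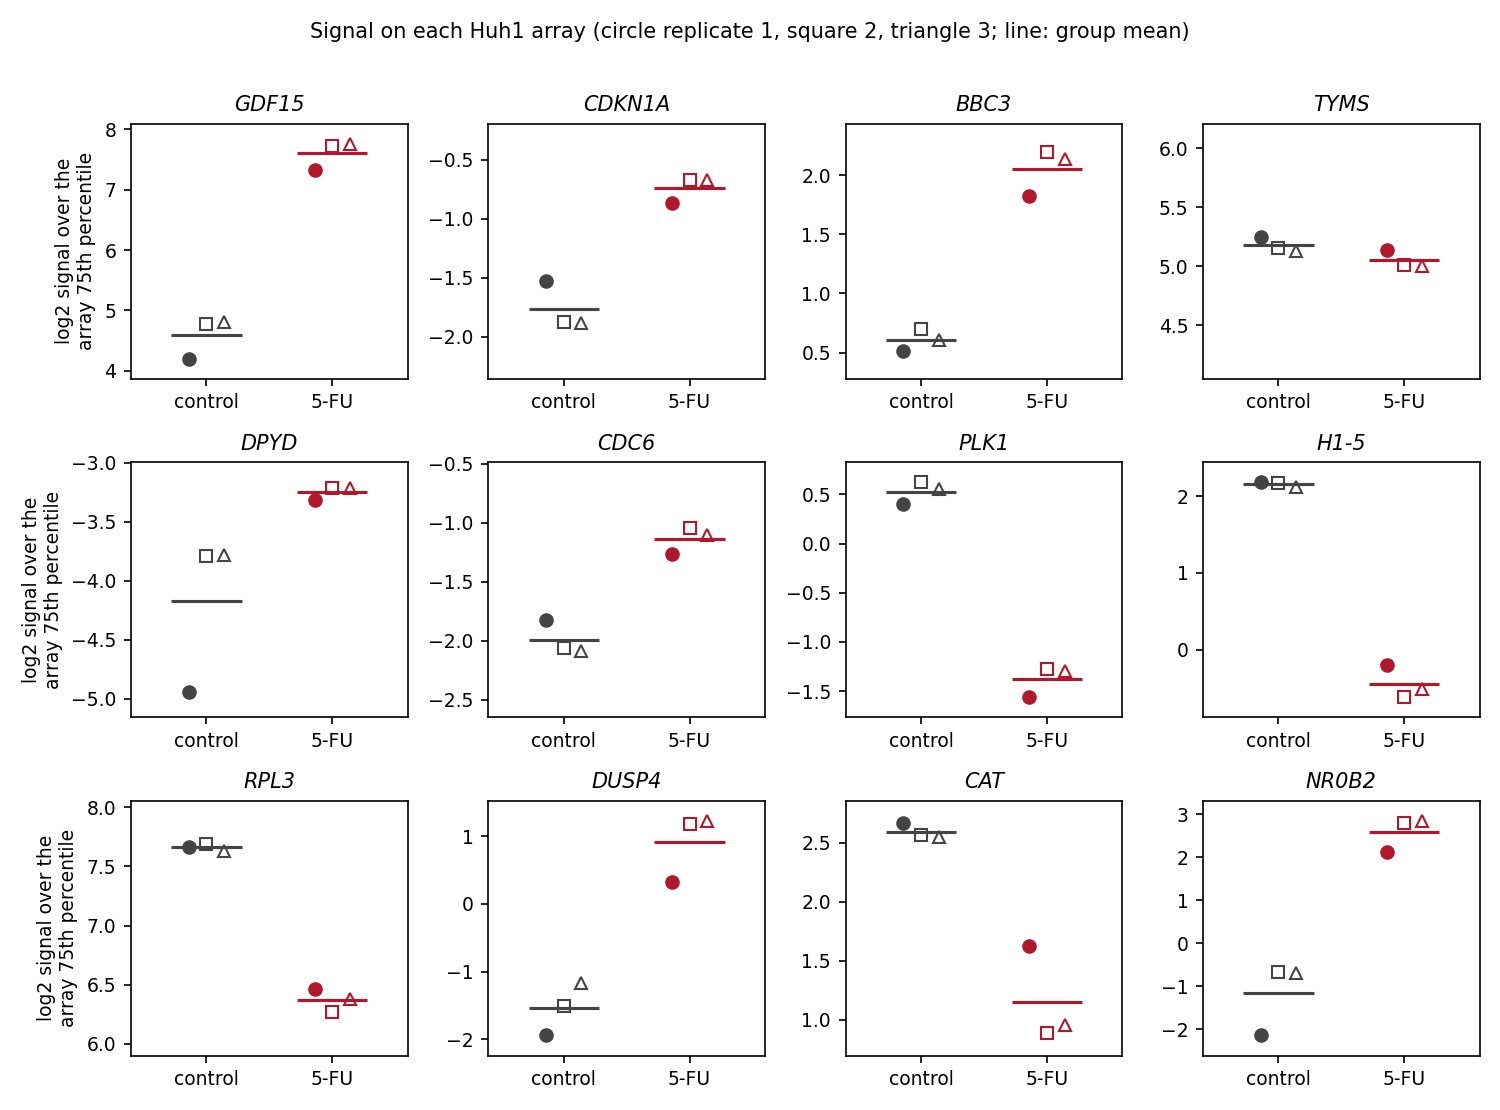
Log2 signal over the array 75th percentile of 12 genes on each of the 6 Huh1 arrays (circle replicate 1, square 2, triangle 3, line the group mean), each panel with its own axis. GDF15, CDKN1A, BBC3, DPYD, CDC6, DUSP4 and NR0B2 are higher on all 5-FU arrays, PLK1, H1-5, RPL3 and CAT are lower, and TYMS overlaps between the groups.

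Of 29 measured apoptosis regulators 11 rose and none fell. The first fit alone gave 20 as higher and 3 as lower. Among the 11 pro-death members of the BCL2 family it gave 7 as higher and 2 as lower. The pro-death members of the BCL2 family rose in 5 of 11 cases, namely BBC3 (PUMA), PMAIP1 (NOXA), BMF, BAD and BAK1. BBC3, which binds and blocks the pro-survival members, was at 0.52, 0.70 and 0.60 on the control arrays and 1.83, 2.20 and 2.14 on the 5-FU arrays, with no overlap, and changed by 1.45 ± 0.12 (SE), adjusted p = 5.45e-07 and 0.00222. PMAIP1 changed by 1.08 ± 0.17 (SE), adjusted p = 0.000119 and 0.0167. Survival genes rose beside them. BCL2L1 (BCL-XL) was the only one of 5 pro-survival BCL2 genes called, at 0.01, 0.64 and 0.58 on the control arrays and 1.04, 1.69 and 1.70 on the 5-FU arrays, a change of 1.07 ± 0.18 (SE), adjusted p = 0.000234 and 0.021. BIRC3, an inhibitor of apoptosis that is also an NF-κB target, changed by 1.57 ± 0.09 (SE), adjusted p = 2.38e-08 and 0.000659. TNFRSF10B, a receptor of the death ligand TRAIL, changed by 0.92 (adjusted p = 1.24e-05 and 0.00882).

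Genes of the transport, activation, breakdown and target of 5-FU were called in both directions. Of 36 measured genes of fluoropyrimidine metabolism 2 rose and 7 fell, with a median of -0.129, beside 15.3% higher and 15.6% lower over all measured genes. TYMS (thymidylate synthase), the target, was at 5.25, 5.15 and 5.13 on the control arrays and 5.13, 5.01 and 5.00 on the 5-FU arrays. The groups overlapped, and the change was -0.13 ± 0.07 (SE), adjusted p = 0.141 and 0.461. TK1, which salvages thymidine, was at 5.99, 5.90 and 5.83 on the control arrays and 5.92, 5.85 and 5.87 on the 5-FU arrays, with overlap and a change of -0.02 ± 0.07 (SE), adjusted p = 0.812 and 0.862. UMPS, which attaches 5-FU to ribose phosphate, was at 4.49, 4.49 and 4.47 on the control arrays and 4.40, 4.52 and 4.50 on the 5-FU arrays, also with overlap (-0.01 ± 0.07 (SE), adjusted p = 0.906 and 0.859). The direction of these 3 small changes turned with the background correction. Of 12 activating enzymes the kinases CMPK1, NME1 and NME2 fell by 0.32 to 0.34. Under quantile normalization NME1 was at -0.018 (adjusted p = 0.824) and NME2 at 0.065, and on the median of its probes CMPK1 was at -0.163 (adjusted p = 0.449), so that each call was lost under an alternative. TYMP (thymidine phosphorylase), which can join 5-FU to deoxyribose, was lower on all 5-FU arrays but passed only the first fit (-0.83 (adjusted p = 0.00894 and 0.105)). DPYD, the rate-limiting enzyme of 5-FU breakdown, was at -4.94, -3.79 and -3.78 on the control arrays and -3.31, -3.22 and -3.21 on the 5-FU arrays. All 5-FU arrays were above all control arrays, but the control of replicate 1 lay more than 1 log2 unit below the other controls. The change of DPYD was 0.92 ± 0.24 (SE), adjusted p = 0.00618 and 0.0483, and it was 1.63 in replicate 1 and 0.57 in replicates 2 and 3. The call was lost when the 6 Huh1 arrays were fitted alone (adjusted p = 0.0706) and on the median of its probes (0.501, adjusted p = 0.337).

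Of 14 genes of the drug target and the thymidylate supply 2 fell, SHMT2 and FPGS, and none rose (median -0.058). SHMT2, the mitochondrial hydroxymethyltransferase that feeds 1-carbon units to thymidylate synthesis, was at 4.93, 5.22 and 5.15 on the control arrays and 4.11, 3.92 and 3.92 on the 5-FU arrays, and changed by -1.12 ± 0.09 (SE), adjusted p = 4.25e-07 and 0.00253. FPGS, which adds glutamates that keep folates in the cell, changed by -0.63 (adjusted p = 9.94e-06 and 0.00596). Of 7 transport genes ABCC11, an exporter of nucleotide analogs, rose (0.83 (adjusted p = 0.000223 and 0.0169)), and SLC29A2, a nucleoside carrier, and SLC22A7, an organic anion transporter, fell (-0.65 (adjusted p = 1.22e-05 and 0.0124) and -0.40 (adjusted p = 0.0035 and 0.0442)). SLC22A7 was not called on the median of its probes (-0.349, adjusted p = 0.328). RRM2, the small subunit of ribonucleotide reductase, was not called (0.29 (adjusted p = 0.0241 and 0.23)). In base excision repair, which removes uracil and 5-FU from DNA, 3 of 21 genes rose and 3 fell. MBD4, a glycosylase that removes thymine and fluorouracil opposite guanine, was at 0.94, 0.87 and 0.89 on the control arrays and 1.47, 1.73 and 1.74 on the 5-FU arrays, and changed by 0.75 ± 0.08 (SE), adjusted p = 3.08e-06 and 0.00604. NEIL1, a glycosylase of oxidized bases, changed by 0.83 (adjusted p = 9.86e-05 and 0.0202), and OGG1, which removes oxidized guanine, by 0.79 (adjusted p = 5.37e-07 and 0.00206), although its other probe passed the 18-array fit in the opposite direction (-0.36). LIG3, the ligase that seals the repaired strand, changed by -0.95 ± 0.07 (SE), adjusted p = 1.8e-07 and 0.00151, with XRCC1 and APEX1 as the other falls. UNG, the main uracil glycosylase, was not called (-0.24 (adjusted p = 0.0321 and 0.182)).

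Genes of cytosolic ribosomal proteins fell together against the rest of the array. Of 75 genes of cytosolic ribosomal proteins 63 were called lower and none higher, with a median of -0.493 (-0.49 over 44 large subunit genes and -0.496 over 31 small subunit genes). RPL3, a core protein of the large subunit, was at 7.67, 7.69 and 7.63 on the control arrays and 6.46, 6.26 and 6.38 on the 5-FU arrays. The groups did not overlap, and the change was -1.29 ± 0.08 (SE), adjusted p = 3.7e-08 and 0.00082. RPL10A changed by -0.88 (adjusted p = 1.08e-07 and 0.0011) and RPS10 by -0.73 (adjusted p = 0.000349 and 0.021). Ribosomal protein genes have many pseudogene copies, and their probes may share signal.

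Translation factors fell in 16 of 41 cases, and EIF4A2, a helicase of translation initiation, was the 1 that rose (0.36 (adjusted p = 0.00126 and 0.0482)). EEF2K, the kinase that halts elongation by acting on EEF2, was at 0.76, 0.62 and 0.74 on the control arrays and -0.80, -1.17 and -1.29 on the 5-FU arrays, a change of -1.79 ± 0.12 (SE), adjusted p = 7.2e-08 and 0.000978. EEF2 itself changed by -0.56 (adjusted p = 5.83e-05 and 0.0171), and EIF3F, a subunit of the initiation factor eIF3, by -0.88 (adjusted p = 8.6e-08 and 0.00145). Among 55 splicing genes 28 fell and 1 rose. SR proteins, which mark exons, fell in 9 of 12 cases (median -0.669), and hnRNPs, which coat nascent RNA, in 12 of 17 (median -0.479), against 7 of 26 for subunits of the spliceosome, of which SF3A1 rose. SRSF1 changed by -1.17 (adjusted p = 5.44e-07 and 0.00147), SRSF7 by -1.05 (adjusted p = 8.38e-08 and 0.00111), HNRNPA1 by -1.01 (adjusted p = 1.67e-05 and 0.00819) and HNRNPA3 by -0.89 (adjusted p = 2.37e-07 and 0.00166).

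The machinery of ribosome assembly had a median near 0. Of 58 genes of ribosomal RNA processing and ribosome biogenesis 6 rose and 11 fell, with a median of -0.047. Over all measured genes 15.3% were called higher and 15.6% lower. In RNA polymerase I, which transcribes the ribosomal RNA genes, RRN3, TAF1A and POLR1B rose and none of 10 fell (median 0.270). RRN3, the initiation factor that recruits the polymerase, was at -0.03, 0.13 and 0.20 on the control arrays and 0.91, 1.27 and 1.22 on the 5-FU arrays. The groups did not overlap, and the change was 1.03 ± 0.10 (SE), adjusted p = 2.31e-06 and 0.00399. NPM1, a nucleolar chaperone, fell to 7.26, 7.38 and 7.38 from 8.24, 8.09 and 8.06 (-0.79 (adjusted p = 1.04e-06 and 0.00281)), and NOP56, a core protein of box C/D snoRNPs, changed by -0.71 (adjusted p = 4.79e-07 and 0.00222).

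Of 39 aminoacyl-tRNA synthetases 15 fell and none rose. The mitochondrial enzymes accounted for 10 of these, out of 17 with a median of -0.574, and NARS2, which charges mitochondrial asparagine tRNA, changed by -1.03 (adjusted p = 7.98e-07 and 0.00201). Of the cytosolic enzymes 5 of 22 fell, with MARS1, the methionine enzyme, at -0.94 (adjusted p = 4.86e-07 and 0.0029). Genes of the respiratory chain fell in 28 of 72 cases without a rise (median -0.281). The deepest fall was that of ATP5F1D, a subunit of the ATP synthase, at 3.35, 3.08 and 2.97 on the control arrays and 1.55, 1.20 and 1.25 on the 5-FU arrays, a change of -1.80 ± 0.10 (SE), adjusted p = 2.31e-08 and 0.000631. Mitochondrial ribosomal proteins fell in 16 and rose in 6 of 75 cases (median -0.118), and proteasome subunits fell in 15 of 32 (median -0.298), with PSMD1, a scaffold of the regulatory particle, at -0.70 (adjusted p = 4.18e-07 and 0.00231). Among nuclear noncoding RNAs, MALAT1 changed by 0.86 (adjusted p = 0.000543 and 0.02) and H19, the imprinted growth-restricting RNA, by -2.42 (adjusted p = 0.0106 and 0.00777). H19 was at -2.10, -3.32 and -3.27 on the control arrays and -6.10, -4.93 and -4.91 on the 5-FU arrays, was well above background on 2 of the 5-FU arrays, and lost its call without the replicate 1 arrays.

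Signaling genes gave some of the largest rises. Dual-specificity phosphatases (DUSPs) remove phosphate from MAP kinases and are themselves transcribed when these kinases are active. Of 10 measured DUSPs 6 rose, and DUSP9, which acts on ERK, was the 1 that fell (-0.85 (adjusted p = 3.02e-05 and 0.0157)). DUSP4 was at -1.94, -1.51 and -1.17 on the control arrays and 0.32, 1.18 and 1.23 on the 5-FU arrays, and changed by 2.45 ± 0.31 (SE), adjusted p = 1.69e-05 and 0.0078. DUSP10, which acts on p38 and JNK, was at -3.52, -3.20 and -3.08 on the control arrays and -1.31, -0.63 and -0.62 on the 5-FU arrays, and changed by 2.42 ± 0.16 (SE), adjusted p = 8.64e-08 and 0.000837. DUSP6, the cytoplasmic ERK phosphatase, changed by 1.91 ± 0.15 (SE), adjusted p = 2.7e-07 and 0.00139, and DUSP5, its nuclear counterpart, by 1.44 (adjusted p = 3.31e-07 and 0.00147). In each of these 4 all 5-FU arrays were above all control arrays. The p38 isoforms and the kinases around them fell in 5 of 18 cases without a rise (median -0.374), namely MAPK14 (p38α), MAP3K5 (ASK1), MAP3K7 (TAK1), MAP2K4 and RPS6KA4. MAPK14 was at 0.46, 0.52 and 0.51 on the control arrays and 0.13, -0.08 and -0.02 on the 5-FU arrays, and changed by -0.49 ± 0.07 (SE), adjusted p = 4.56e-05 and 0.0251, and MAP3K5 changed by -0.74 (adjusted p = 0.000153 and 0.0201).

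Immediate early transcription factors rose in 8 of 18 cases and none fell (median 0.784). ATF3, a stress-induced repressor, was at 2.19, 2.19 and 2.24 on the control arrays and 5.05, 4.28 and 4.32 on the 5-FU arrays. Replicate 1 was highest among the 5-FU arrays, the groups did not overlap, and the change was 2.34 ± 0.14 (SE), adjusted p = 4.1e-08 and 0.000631. FOSL1, a partner of JUN in AP-1, was at -1.16, -1.25 and -1.13 on the control arrays and 0.19, 0.89 and 0.89 on the 5-FU arrays, a change of 1.84 ± 0.21 (SE), adjusted p = 9.49e-06 and 0.00368. JUN changed by 1.02 (adjusted p = 0.000369 and 0.0277). NR4A1, an orphan nuclear receptor, was not well above background on any control array and rose at least 2.23-fold. NF-κB feedback genes and chemokines rose in 11 of 19 cases and none fell. CXCL8 (interleukin-8), which attracts neutrophils, was at -3.40, -1.66 and -1.47 on the control arrays and 0.44, 1.08 and 1.05 on the 5-FU arrays. The control of replicate 1 was the lowest array, all 5-FU arrays were above all controls, and the change was 3.03 ± 0.36 (SE), adjusted p = 1.14e-05 and 0.00368. IER3 changed by 1.76 ± 0.12 (SE), adjusted p = 7.57e-08 and 0.00091, and CCL20, a chemokine of lymphocytes and dendritic cells, by 1.62 (adjusted p = 4.69e-06 and 0.00301).

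Ligands of the ERBB receptor family also rose. Of 11 measured ERBB receptors and ligands 6 rose and 1 fell. BTC (betacellulin) was at -5.06, -4.32 and -4.48 on the control arrays and -2.44, -1.84 and -1.88 on the 5-FU arrays, and changed by 2.57 ± 0.17 (SE), adjusted p = 8.42e-08 and 0.000805. EREG (epiregulin) changed by 2.05 ± 0.17 (SE), adjusted p = 3.76e-07 and 0.00166 and AREG (amphiregulin) by 1.66 ± 0.11 (SE), adjusted p = 9.35e-08 and 0.00115. The receptor ERBB3 changed by -0.52 (adjusted p = 0.00019 and 0.0372), but of its 3 probes 1 moved the opposite way. In the TGF-β and BMP response 4 of 20 genes rose, TGFB1, CCN1, BMP2 and SKIL, and 4 fell, ID1, ID2, SMAD6 and TGFBI. TGFB1 was at -2.58, -2.72 and -2.78 on the control arrays and -1.67, -1.45 and -1.44 on the 5-FU arrays, and changed by 1.17 ± 0.10 (SE), adjusted p = 4.34e-07 and 0.00244, while ID1, a direct target of BMP signaling, changed by -0.60 (adjusted p = 0.00012 and 0.0219). Under quantile normalization ID1 was at -0.229 (adjusted p = 0.057) and TGFBI at -0.062 (adjusted p = 0.356), and neither was called.

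Interferon and RNA sensing genes rose in 15 of 31 measured cases and fell in 3, with a median of 0.591. The rises were 10 of 18 interferon-stimulated genes and 5 of 13 sensors and regulators. IRF9, the DNA-binding part of the interferon-activated complex, was at -0.84, -1.08 and -0.98 on the control arrays and 0.36, 0.61 and 0.54 on the 5-FU arrays. The groups did not overlap, and the change was 1.47 ± 0.10 (SE), adjusted p = 1.31e-07 and 0.00142. IRF7, which drives interferon transcription, was at 3.03, 2.94 and 2.82 on the control arrays and 4.17, 4.22 and 4.25 on the 5-FU arrays, and changed by 1.28 ± 0.16 (SE), adjusted p = 2.08e-05 and 0.00763. RIGI, the cytoplasmic sensor of viral RNA, was at -0.99, -1.21 and -1.08 on the control arrays and 0.02, -0.13 and -0.09 on the 5-FU arrays, and changed by 1.03 ± 0.06 (SE), adjusted p = 3.85e-08 and 0.000837. ISG15, a ubiquitin-like modifier, rose by 1.04, and OAS2, which makes the activator of RNase L, by 1.20. On the median of its probes OAS2 was at 0.765 (adjusted p = 0.111) and not called. The pathway was not uniform. DHX58 (LGP2), a relative of RIGI, changed by -1.06 (adjusted p = 7.75e-05 and 0.0047), STAT2, the partner of IRF9, by -0.60 (adjusted p = 0.000724 and 0.0313), and MX1, an antiviral GTPase, by -0.60 (adjusted p = 0.011 and 0.0368), a call lost without the control of replicate 1. IFIT1, among the most inducible interferon targets, was at -0.35, -0.63 and -0.76 on the control arrays and -0.89, -1.68 and -1.77 on the 5-FU arrays, and it was lower on all 5-FU arrays but not called (-0.87 (adjusted p = 0.0156 and 0.187)). HERC5, the ligase for ISG15, was called higher from signals near background, being above it on 2 of the 5-FU arrays and on no control array, and the call was lost under normexp.

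Most scavengers of reactive oxygen species (ROS) fell. Of 24 such genes 15 fell and 2 rose, with a median of -0.465. CAT (catalase) was at 2.67, 2.56 and 2.55 on the control arrays and 1.62, 0.89 and 0.95 on the 5-FU arrays. All 5-FU arrays were below all controls, with replicate 1 closest, and the change was -1.44 ± 0.14 (SE), adjusted p = 2.09e-06 and 0.00337. GPX2, a glutathione peroxidase, changed by -1.02 (adjusted p = 6.78e-06 and 0.00736), and GSS, the second enzyme of glutathione synthesis, by -0.41 (adjusted p = 0.000115 and 0.0325). GCLM, the modifier of the first enzyme, overlapped between the groups and was not called (-0.05 (adjusted p = 0.765 and 0.763)). The rises were GLRX2 (0.51 (adjusted p = 7.86e-06 and 0.0134)) and SOD2, the mitochondrial superoxide dismutase and an NF-κB target, which was at 3.72, 4.22 and 4.12 on the control arrays and 4.71, 5.24 and 5.24 on the 5-FU arrays and changed by 1.04 ± 0.14 (SE), adjusted p = 2.75e-05 and 0.00847. Targets of NRF2, the transcription factor of the antioxidant response, fell in 8 of 21 cases and rose in 1.

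Of the unfolded protein response, DDIT3 rose and chaperones of the endoplasmic reticulum fell. DDIT3 (CHOP), the factor that links this stress to cell death, was at 0.35, 0.39 and 0.35 on the control arrays and 2.21, 2.76 and 2.75 on the 5-FU arrays, with no overlap, and changed by 2.21 ± 0.13 (SE), adjusted p = 2.76e-08 and 0.000723. Of 18 ATF4 targets 6 rose and 2 fell. SLC3A2, the heavy chain of amino acid carriers, changed by 0.96 (adjusted p = 4.57e-05 and 0.0157), and SLC7A11, its cystine-importing partner, by -1.03 (adjusted p = 0.000119 and 0.0144). Of 16 chaperones of the endoplasmic reticulum 9 fell and none rose (median -0.517). PDIA4, a disulfide isomerase, was at 2.85, 3.03 and 2.95 on the control arrays and 1.78, 1.66 and 1.61 on the 5-FU arrays, and changed by -1.27 ± 0.10 (SE), adjusted p = 3.77e-07 and 0.00222. HSPA5 (BiP) changed by -0.79 (adjusted p = 0.000221 and 0.027) and HSP90B1 (GRP94) by -0.90 (adjusted p = 6.1e-07 and 0.0027). Cytosolic heat shock chaperones fell in 6 of 15 cases without a rise, with HSPA1B at -0.88 (adjusted p = 3.2e-06 and 0.00553). Metallothioneins, which bind zinc and copper, fell in 8 of 9 measured cases (median -0.791). MT2A was at 1.52, 1.19 and 1.09 on the control arrays and 0.01, 0.00 and 0.08 on the 5-FU arrays and changed by -1.24 ± 0.18 (SE), adjusted p = 7.6e-05 and 0.0103, and MT1M changed by -1.35 (adjusted p = 0.0016 and 0.00893). Metallothionein probes may share signal between near-identical copies.

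Changes of liver genes differed between the replicate 1 arrays and those of replicates 2 and 3, and the former rest on 1 array against 1. Secreted liver proteins had a median of 0.587 in replicate 1 and of -0.075 in replicates 2 and 3, which have opposite signs. Of 57 genes 12 were called higher and 1 lower (median 0.183). Apolipoproteins rose in 4 of 12 cases. APOC2, the activator of lipoprotein lipase, was at 0.25, 0.48 and 0.49 on the control arrays and 2.68, 2.10 and 2.12 on the 5-FU arrays. The rise was present in both sets of arrays, at 2.43 in replicate 1 and 1.63 in replicates 2 and 3, and the change was 1.89 ± 0.17 (SE), adjusted p = 1.16e-06 and 0.00198. APOC4 and APOM, the carrier of sphingosine 1-phosphate, changed by 1.33 (adjusted p = 0.000511 and 0.0157) and 1.10 (adjusted p = 0.000843 and 0.0255). Coagulation and complement genes rose in 5 of 26 cases. FGA, a fibrinogen chain, was at 1.69, 1.54 and 1.53 on the control arrays and 2.65, 2.96 and 3.00 on the 5-FU arrays and changed by 1.28 ± 0.08 (SE), adjusted p = 5.17e-08 and 0.0011, and C8A, a part of the membrane attack complex, changed by 1.62 ± 0.10 (SE), adjusted p = 5.37e-08 and 0.000784. SERPINA7, the thyroxine-binding globulin, went from background on all control arrays to a rise of at least 2.57-fold, a call lost under normexp. HP (haptoglobin), an acute phase protein that binds free hemoglobin, was the only called fall among the 57 genes. It was at 6.58, 6.62 and 6.53 on the control arrays and 5.63, 4.41 and 4.36 on the 5-FU arrays, with replicate 1 above the other 5-FU arrays, a change of -1.78 ± 0.28 (SE), adjusted p = 0.000118 and 0.0244.

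**Figure D4:**
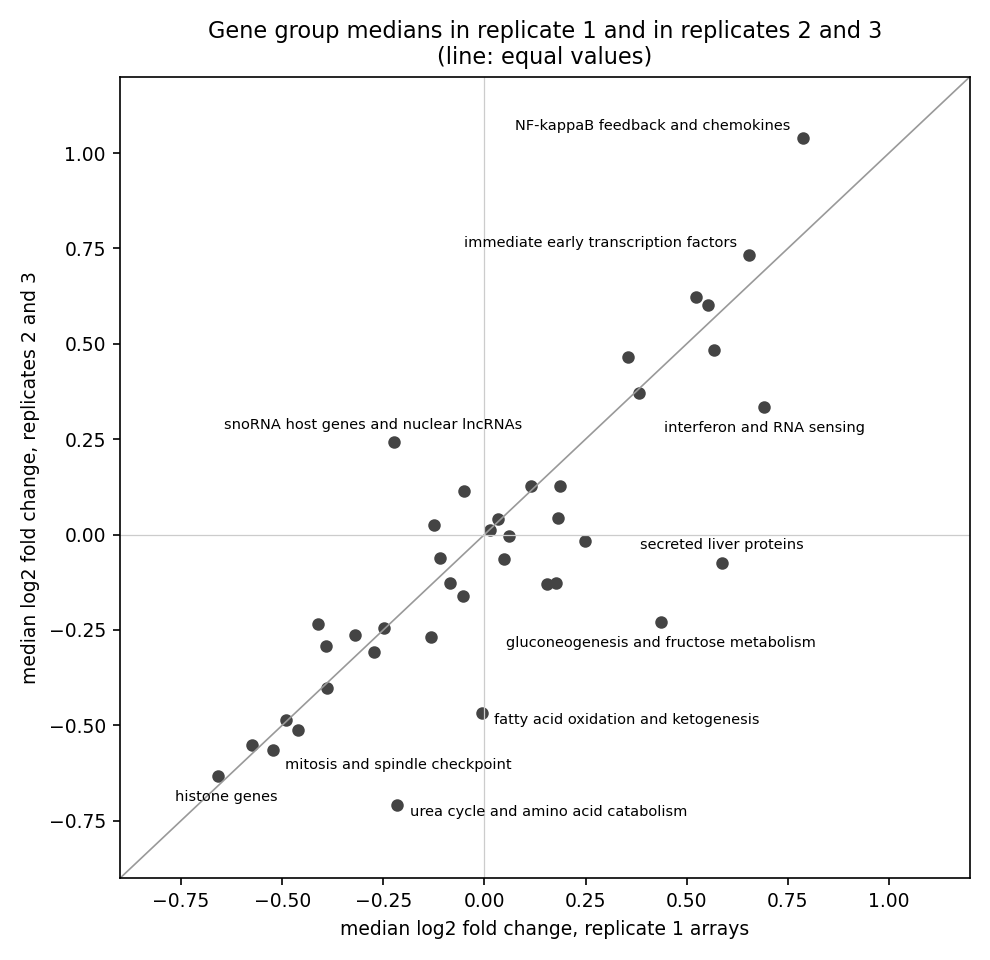
Median log2 fold change of each gene group in the replicate 1 arrays (x axis) and in replicates 2 and 3 (y axis), with the line of equal values. Secreted liver proteins (0.587 and -0.075), gluconeogenesis and urea cycle genes lie away from the line, and mitosis and histone genes lie near it.

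Metabolic genes of the hepatocyte showed the same division. The median of 27 urea cycle and amino acid catabolism genes was -0.215 in replicate 1 and -0.710 in replicates 2 and 3, that of 12 genes of gluconeogenesis and fructose metabolism 0.437 and -0.228, and that of 21 genes of fatty acid oxidation -0.006 and -0.469. Over all measured genes 77.5% had the same sign in both sets. Of those called in both fits 100% did. The call itself favors this, since the averaged fit has these same 2 sets as its Huh1 samples, so it is no separate test. Of the urea cycle and amino acid group 9 genes fell and 3 rose. ASL, which cleaves argininosuccinate to arginine, was at 3.62, 3.71 and 3.66 on the control arrays and 2.63, 2.15 and 2.17 on the 5-FU arrays, and changed by -1.34 ± 0.11 (SE), adjusted p = 5.23e-07 and 0.00246. PRODH2, a hydroxyproline dehydrogenase, changed by -1.75 (adjusted p = 0.00171 and 0.0431), and BCKDHB, of branched-chain amino acid breakdown, by -1.25 (adjusted p = 4.69e-06 and 0.0056). HPD, an enzyme of tyrosine breakdown, changed by -1.29 (adjusted p = 0.0477 and 0.00896), and its call was lost when any single array was left out. NAGS, which makes the activator of the urea cycle, and TDO2, which opens the ring of tryptophan, rose (1.33 (adjusted p = 2.23e-06 and 0.00375) and 1.18 (adjusted p = 0.000133 and 0.0266)). PCK2, the mitochondrial PEP carboxykinase, was at 0.12, 0.64 and 0.56 on the control arrays and -0.76, -1.33 and -1.31 on the 5-FU arrays and changed by -1.57 ± 0.19 (SE), adjusted p = 1.22e-05 and 0.0103, and SLC37A4, the glucose 6-phosphate transporter, changed by -1.28 (adjusted p = 1.88e-07 and 0.00163). PPARGC1A, a coactivator of gluconeogenesis, rose (1.24 (adjusted p = 0.000966 and 0.0163)). ACADS, a dehydrogenase of short-chain fatty acids, changed by -1.69 (adjusted p = 1.61e-07 and 0.00138).

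Genes of sterol synthesis rose more often than they fell, and those of fatty acid synthesis were called in 1 direction, lower. Of 24 sterol genes 10 rose and 2 fell (median 0.355), with DHCR7, the last step to cholesterol, at 0.89 (adjusted p = 5.35e-07 and 0.00175) and IDI1, an isoprenoid isomerase, at 0.79 (adjusted p = 1.67e-06 and 0.0027). Of 11 genes of fatty acid synthesis 4 fell and none rose, with ACACA, the acetyl-CoA carboxylase, at -0.78 (adjusted p = 4.36e-07 and 0.00246) and FASN, the fatty acid synthase, at -0.68 (adjusted p = 7.83e-06 and 0.00993). On the median of its probes ACACA was at -0.379 (adjusted p = 0.394) and not called. NR0B2 (SHP), the nuclear receptor that represses bile acid synthesis, was at -2.15, -0.66 and -0.70 on the control arrays and 2.12, 2.80 and 2.84 on the 5-FU arrays. Every 5-FU array was more than 2 log2 units above every control, and the change was 3.76 ± 0.37 (SE), adjusted p = 1.87e-06 and 0.00237. CYP7A1, the rate-limiting enzyme that SHP represses, was at background in control and rose at least 2.13-fold, a call lost under normexp and without the control of replicate 2. FGFR4, the hepatic receptor for FGF19, changed by -1.05 (adjusted p = 1.21e-05 and 0.00758), and AMACR, a racemase of bile acid synthesis, by -1.11 (adjusted p = 0.00016 and 0.0223). Of 25 cytochrome P450 genes 7 rose and 3 fell. CYP1A1, the target of the aryl hydrocarbon receptor, was at 0.02, -0.01 and -0.01 on the control arrays and 1.22, 2.33 and 2.32 on the 5-FU arrays and changed by 1.96 ± 0.25 (SE), adjusted p = 1.79e-05 and 0.0101, CYP39A1, an oxysterol hydroxylase, changed by 1.49 (adjusted p = 2.63e-06 and 0.00307), and CYP4F12 by -0.80 (adjusted p = 6.77e-05 and 0.0164). Of 21 hepatocyte transcription factors 3 rose and 3 fell, among them NR1I3 (CAR), a xenobiotic receptor, at 1.22 (adjusted p = 0.00383 and 0.0348) but not called on the median of its probes (0.984, adjusted p = 0.0793), CEBPD at -0.95 (adjusted p = 2.21e-06 and 0.00336) and RXRA, the partner of many nuclear receptors, at -0.75 (adjusted p = 4.89e-05 and 0.0169).

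Markers of tumor-initiating and progenitor cells moved in both directions. EPCAM, on which the cells were sorted, was at 2.71, 2.57 and 2.58 on the control arrays and 3.31, 2.87 and 2.86 on the 5-FU arrays. The levels with 5-FU lay above those of control, but the change of 0.39 did not pass either fit (adjusted p = 0.0764 and 0.264). Of 23 measured markers 4 rose and 2 fell, beside 15.3% called higher and 15.6% called lower over all measured genes. SOX9, a biliary and progenitor transcription factor, was at -4.29, -3.89 and -4.00 on the control arrays and -2.79, -2.40 and -2.66 on the 5-FU arrays, and changed by 1.44 ± 0.15 (SE), adjusted p = 3.49e-06 and 0.00276. SALL4, an oncofetal transcription factor, changed by 1.27 (adjusted p = 4.67e-06 and 0.00428), AFP, the fetal albumin relative, by 0.90 (adjusted p = 0.000184 and 0.0124), and PROM1 (CD133) by 0.85 (adjusted p = 0.0006 and 0.0466). The falls were KRT18 (-0.34 (adjusted p = 0.000494 and 0.0489)) and IGF2BP3 (-0.85 (adjusted p = 4.58e-07 and 0.00301)). GPC3, an oncofetal surface proteoglycan, was at 5.38, 5.73 and 5.69 on the control arrays and 5.71, 5.08 and 5.07 on the 5-FU arrays. It overlapped between the groups and was not called (-0.32 (adjusted p = 0.0862 and 0.626)). Its change was 0.32 in replicate 1 and -0.64 in replicates 2 and 3. ANPEP (CD13) and CDH1 (E-cadherin) also overlapped and were not called (-0.46 (adjusted p = 0.072 and 0.451) and 0.01 (adjusted p = 0.977 and 0.738)). KRT19 had a control of replicate 1 at 4.04 and the other controls at 2.39 and 2.29, overlapped with the 5-FU arrays and was not called (1.22 (adjusted p = 0.0219 and 0.343)).

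The largest rise among genes well above background on all 6 arrays was that of SSUH2. It was at -1.53, -1.84 and -1.93 on the control arrays and 2.32, 3.11 and 3.11 on the 5-FU arrays, and changed by 4.61 ± 0.18 (SE), adjusted p = 2.54e-09 and 0.000235. NR0B2 came next, followed by SUN3, a protein of the nuclear envelope, at 3.43 (adjusted p = 8.81e-06 and 0.00409), PRL (prolactin) at 3.24 (adjusted p = 1.05e-05 and 0.00542), CAPN8, a calpain protease, at 3.18 (adjusted p = 1.64e-05 and 0.0101) and B3GAT1, a glucuronyltransferase, at 3.04 (adjusted p = 9.26e-07 and 0.0019). The other rises of the first 12 were CXCL8, GDF15, NEDD9 (a scaffold of focal adhesions, 2.99), BEX2 (2.93), SSTR2 (a somatostatin receptor, 2.90) and FLRT3 (a membrane protein with leucine-rich repeats, 2.87). The largest fall was that of LHPP, a phosphohistidine phosphatase. It was at 1.69, 1.99 and 1.92 on the control arrays and -2.04, -2.68 and -2.74 on the 5-FU arrays, and changed by -4.35 ± 0.14 (SE), adjusted p = 5.68e-10 and 0.000212, and both of its probes were called. After PIF1 came SLC22A11, an organic anion transporter, at -3.00 (adjusted p = 1.9e-06 and 0.00197), FXYD3, a regulator of the sodium pump, at -2.85 (adjusted p = 5.2e-05 and 0.0123), HSD17B8, a hydroxysteroid dehydrogenase of mitochondrial fatty acid synthesis, at -2.84 (adjusted p = 5.65e-07 and 0.00206), and ARHGAP44, a GTPase-activating protein, at -2.68 (adjusted p = 5.8e-07 and 0.00143). The rest of the 12 were H1-5, ZFYVE28 (-2.53), the water channel AQP1 (-2.53), LBP, the binding protein of lipopolysaccharide (-2.42), CCNB3 and CFHR5, a relative of complement factor H (-2.36). With the median over the probes of a gene in place of the brightest, ARHGAP44 was at -1.442 (adjusted p = 0.316), ZFYVE28 at -1.324 (adjusted p = 0.4) and AQP1 at -1.317 (adjusted p = 0.343), and none of them was called.

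Signals also appeared or went below background. There were 163 called genes with no control array and all 5-FU arrays well above background, and 7 with the reverse. Such genes could pass the filter on dim probes through their bright group alone. The 5-FU arrays were also brighter before scaling, with a log2 75th percentile of 10.638 to 10.719 against 10.146 to 10.216 in control, and more of their probes were above background. The part of this in the 2 counts was not tested. KRTAP1-1, a hair keratin-associated protein, rose at least 42.7-fold, CEMIP, a hyaluronan-binding protein, at least 29-fold, KRTAP1-5 at least 11.2-fold and the noncoding RNAs RDUR and CASC16 at least 10.4-fold and at least 9.13-fold. The 2 KRTAP genes are close copies and may share signal. OR6X1, an olfactory receptor, fell at least 91.5-fold, from -1.44, 1.12 and -1.70 in control, where replicate 2 stood far above the others. RIMS3, a synaptic protein, fell at least 10.5-fold, RAB34, a small GTPase, at least 7.85-fold and SLC2A4 (GLUT4), the insulin-responsive glucose transporter, at least 6.81-fold. Each bound sets the mean of the bright group against that of the dim group, where each dim array counts with the lowest signal called well above background on it or with the signal of the probe, whichever is higher. GAPDH, often taken as a reference gene, changed by -0.41 (adjusted p = 0.000362 and 0.0391), and under quantile normalization by -0.02 (adjusted p = 0.835), without a call.

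Set against the same drug and dose in Huh7, the change in Huh1 was called different for 1639 of 13485 genes above background in all 4 groups (12.2%, with 6.41% higher in Huh7 and 5.75% lower). Among the genes named here, GDF15 was 3.00 in Huh1 and 0.71 in Huh7 (difference -2.29, adjusted p = 3.17e-06 and 0.0071). BBC3 was 1.45 in Huh1 and -1.20 in Huh7 (difference -2.65, adjusted p = 1.41e-07 and 0.00251), and thus rose in Huh1 and lay lower in Huh7. DDIT3 was 2.21 in Huh1 and -0.01 in Huh7 (difference -2.22, adjusted p = 9.05e-07 and 0.00462), ATF3 2.34 in Huh1 and 0.02 in Huh7 (difference -2.32, adjusted p = 1.55e-06 and 0.00408) and SSUH2 4.61 in Huh1 and -1.08 in Huh7 (difference -5.70, adjusted p = 4.26e-09 and 0.00042). In the cell cycle, PLK1 was -1.90 in Huh1 and -0.70 in Huh7 (difference 1.20, adjusted p = 5.48e-06 and 0.00989) and CDC6 0.86 in Huh1 and 2.08 in Huh7 (difference 1.22, adjusted p = 2.12e-06 and 0.00599). All 8 mitosis genes and all 10 replication and G1/S genes called in this difference were higher in Huh7, while of 18 ATF4 targets 9 were lower in Huh7 and of 24 sterol genes 8. The median of the replication and G1/S genes compared was 0.035 in Huh1 and 0.371 in Huh7, that of the ribosomal protein genes -0.493 and -0.753, and that of the histone genes -0.639 and -1.010.

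**Figure D5:**
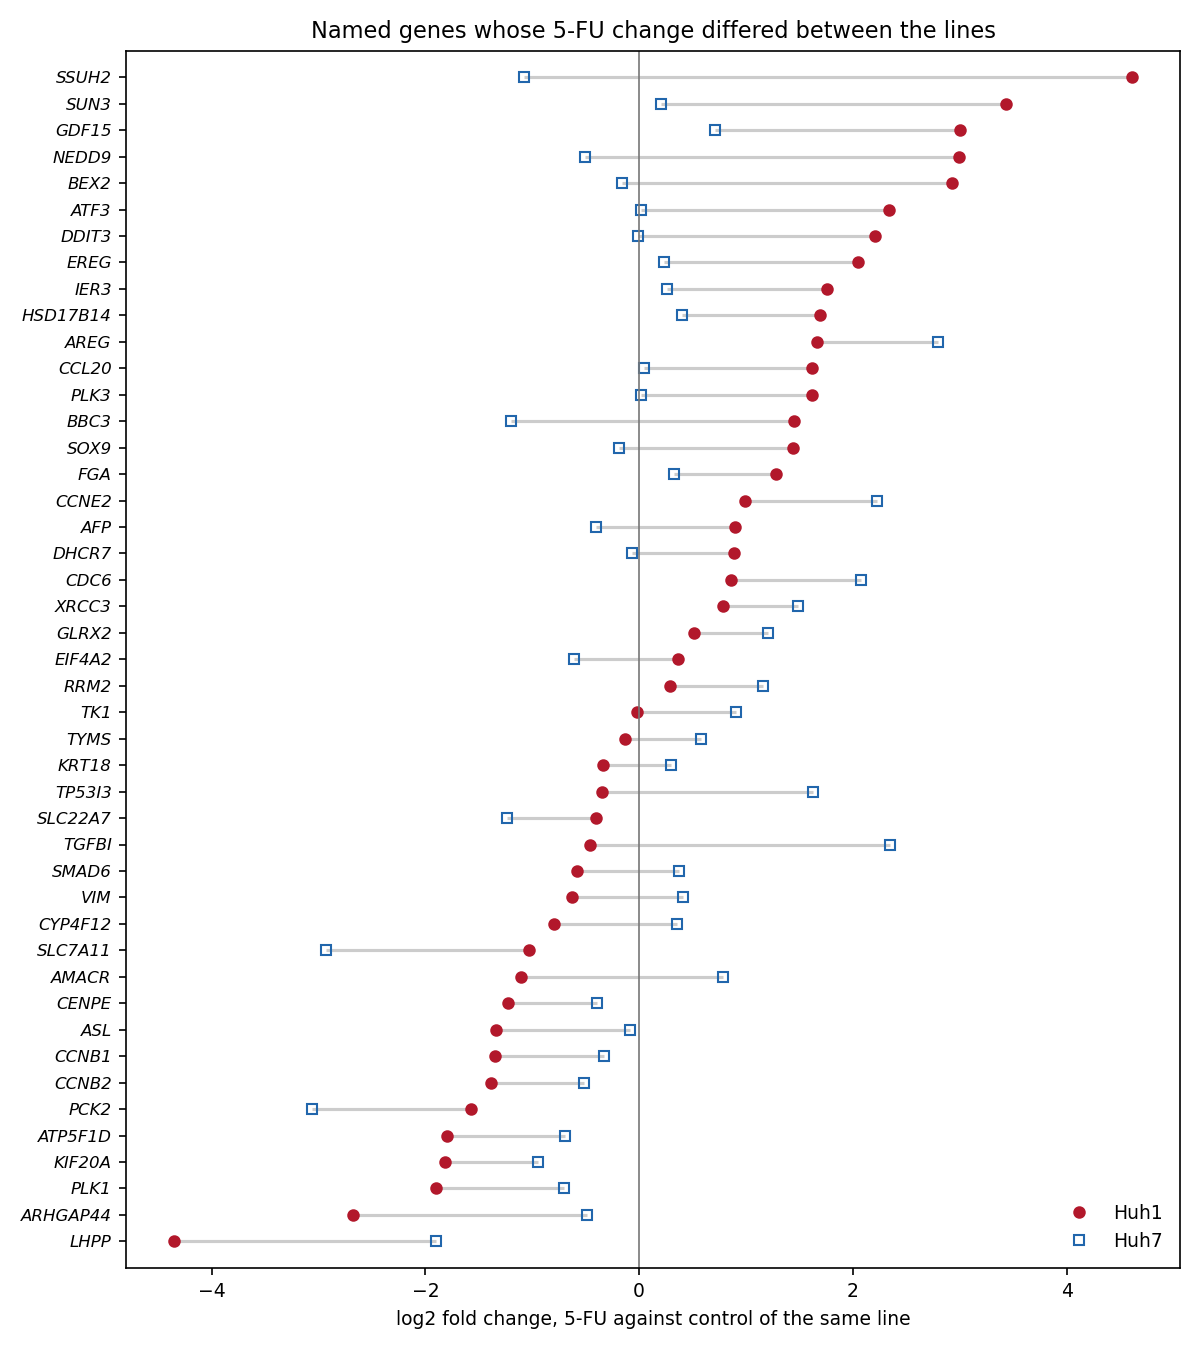
Log2 fold change of 5-FU against the control of the same line in Huh1 (filled red circles) and in Huh7 (open blue squares), for 45 named genes whose change was called different between the lines, ordered by the change in Huh1. SSUH2, NEDD9, BBC3, SOX9 and AFP lie on opposite sides of 0, and LHPP and PLK1 lie further below 0 in Huh1.

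The Huh1 cells exposed to 1 µM 5-FU were also set directly against those exposed to 0.1 µM DSF, at doses that differ. Of the measured genes 2366 (15.9%) were higher with 5-FU and 2582 (17.3%) lower. Secreted liver proteins were higher with 5-FU in 33 of 57 cases, with a median difference of 0.813. Ribosomal protein genes were lower with 5-FU in 62 of 75 cases (median -0.460), histone genes in 31 of 43 (-0.835) and heat shock and metallothionein genes in 18 of 24 (-0.778). LHPP differed by -3.87 (adjusted p = 9.73e-11 and 2.04e-05) and MT2A by -8.03 (adjusted p = 6.01e-13 and 1.11e-06), both lower with 5-FU. NR0B2 differed by 2.48 (adjusted p = 6.81e-05 and 0.0132) and APOC2 by 2.11 (adjusted p = 3.75e-07 and 0.00096), both higher with 5-FU. RPL3 differed by -1.03 (adjusted p = 1.54e-07 and 0.000926) and RIGI by 1.20 (adjusted p = 3.89e-09 and 0.00017). Some of the largest changes named above were not called different between the drugs in both fits. SSUH2 (difference 0.588, adjusted p = 0.01285 and 0.177) and ATF3 (-0.629, adjusted p = 0.00223 and 0.1035) passed the first fit only. Against the same control arrays, SSUH2 changed by 4.025 with DSF, GDF15 by 2.79, CXCL8 by 2.90, ATF3 by 2.97 and DUSP10 by 2.68. KRTAP1-1 changed by 5.27 and OR6X1 by -7.08 with DSF. Both changes use these control arrays, and their part in the likeness was not tested.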

How the data were processed

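EpCAM+ Huh1 cells were measured on 6 Agilent SurePrint G3 arrays of 1 color, grouped by their labels. The authors deposited scanner files from Feature Extraction 10.7.1.1 per the file headers, whose processed signal is a linear intensity after background subtraction, and GeneSpring values of intensity normalized to the 75th percentile, which were an alternative here and lay within 0.05 (log2) of a constant from the scanner files for 100% of tested probes.

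Unflagged spots of a probe were averaged as log2 signal, and the log2 75th percentile of the array was subtracted. Of 42405 probes 78 were left out for want of an unflagged spot, and 29894 were tested, those with a signal well above background throughout at least 1 of the 6 groups. RefSeq accessions named 25771 probes (19740 genes), and the brightest tested probe stood for a gene. Of 15852 genes tested, 936 were below background on all 6 arrays and 1 had no bound, which left 14915. Such dim probes hold surrogate values and were not counted as changes.

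A limma fit of 18 arrays in 6 groups with Benjamini-Hochberg adjustment (threshold 0.05) was the main test. A second fit averaged arrays of a group that differed by no more than the spots of a probe, which left 12 (2 Huh1 control, 2 Huh1 5-FU, 2 Huh1 DSF, 1 Huh7 control, 3 Huh7 5-FU, 2 Huh7 DSF). Since the origin of such pairs is not known, p values may measure technical spread. Alternatives were normexp (offset 50, on the median signal, since the mean signal is not in the files), quantile, median and spike-in scaling (spike-ins above 8), 2 filters, the 6 arrays alone, blocks for replicate and slide, flagged spots kept, the median probe of a gene, the methods' selection rule and leaving out arrays. Fits of 18 arrays, and of the 12 left when 1 array of each near-identical set was kept, were tested on simulated data.

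The members and gene lists were chosen with earlier results of these data known. Named genes were, by rule, the 12 largest rises and falls with groups apart and above background, the 5 strongest genes each on and off by bound, up to 2 rises and 2 falls per list, a set of 20 and single members of small groups, and further members were named after values were seen. Listed genes without a probe were not analysed here, and a few genes that the rule names are not reported here. Promoters came from RefSeq (GRCh38.p14), used for sequence and names only, since the array design is of hg19. Tools were R 4.3.3, limma 3.58.1, data.table (1.17.8), jsonlite 2.0.0, Python 3.11.15, pandas 2.3.3, numpy 2.4.6 and matplotlib 3.10.9.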

Additional observations from a re-analysis of the deposited data

Results flagged for a closer look

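The change with 5-FU differed between Huh1 and Huh7 for 45 of 233 named genes, by limma's test of the difference of both changes, which the fit of all 18 arrays and the fit with near-identical arrays averaged both passed. For 25 of the named genes the difference was not assessed, since the signal was below background in a group. Values below are the log2 change in Huh7 minus that in Huh1, and 18 of the 45 genes had changes of opposite sign. The only Huh7 control left in the second fit was assumed to vary like the other groups.

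Among stress and death genes the change was lower in Huh7 for GDF15 at -2.29, PLK3 at -1.6, BBC3 at -2.65, ATF3 at -2.32, DDIT3 at -2.22, IER3 at -1.5, CCL20 at -1.57, EREG at -1.82 and SLC7A11 at -1.9. TP53I3 went the other way at 1.98 and so did AREG at 1.14. For BBC3 the change was 1.45 in Huh1 and -1.2 in Huh7 (adjusted p of the difference 1.41e-07 and 0.00251).

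Among cell cycle and nucleotide genes the change was higher in Huh7 for TYMS at 0.71, TK1 at 0.94, RRM2 at 0.88, CDC6 at 1.22, CCNE2 at 1.23, XRCC3 at 0.71, PLK1 at 1.2, CCNB1 at 1.02, CCNB2 at 0.87, KIF20A at 0.87 and CENPE at 0.84. TYMS, the target of the drug, was at -0.13 in Huh1 and 0.58 in Huh7 (adjusted p 6.67e-05 and 0.0374). TGFBI, an extracellular matrix protein induced by TGF-β, was at -0.46 in Huh1 and 2.35 in Huh7 (adjusted p 1.57e-10 and 0.000195).

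Among metabolic, structural and TGF-β genes, ATP5F1D at 1.11, AMACR at 1.9, CYP4F12 at 1.15, ASL at 1.25, GLRX2 at 0.7, SMAD6 at 0.94, TGFBI at 2.81, KRT18 at 0.64 and VIM at 1.03 had the higher change in Huh7. The change was lower there for EIF4A2 at -0.96, FGA at -0.95, PCK2 at -1.49, DHCR7 at -0.96, HSD17B14 at -1.29, AFP at -1.29, SOX9 at -1.63 and SLC22A7 at -0.84. Of the genes named for the size of their change in Huh1, the difference was called for SSUH2 at -5.7, SUN3 at -3.23, NEDD9 at -3.49, BEX2 at -3.09, LHPP at 2.45 and ARHGAP44 at 2.19. SSUH2 was at 4.61 in Huh1 and -1.08 in Huh7 (adjusted p 4.26e-09 and 0.00042).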

How the results depend on the processing

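The fit of all 18 arrays called 14403 of 29894 probes, 6642 higher and 7761 lower. Averaging the near-identical arrays, an alternative added after seeing the data, gave 7909 (3707 higher, 4202 lower), with fewer arrays in the fit. Spike-in scaling gave 22736 (22370 higher, 366 lower), normexp 13050 lower against 5445 higher, and no filter on dim probes 11712 lower against 6503 higher. The methods' selection rule gave 5851 higher and 7347 lower. The difference between the lines moved from 10935 probes to 6785 under spike-in scaling and 3364 with averaging, and 5-FU against DSF from 14713 to 8856 with averaging. Without 1 array, or without replicate 1 of both groups, the calls ranged from 12323 to 14718 (5619 to 6995 higher, 6690 to 7740 lower), those of the line difference from 9653 to 11360 and those of 5-FU against DSF from 12959 to 13879. The other alternatives left these counts within 1.5 times.

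The labels number the replicates in each group. Deviations of same-numbered control and 5-FU arrays had correlations of -0.058, -0.072 and 0.009. These values cannot decide whether the numbers pair the samples, since each group holds few arrays and some of them are near-identical. With the replicate block 14077 probes were called (6483 higher, 7594 lower), 10457 for the line difference and 14316 against DSF.

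Small changes changed sign. TYMS was 0.017 under normexp and 0.083 under quantile normalization, TK1 0.147 and 0.286, UMPS 0.176 and 0.108, and GCLM 0.131 and 0.078. FANCC was -0.278 on the median of its probes. KRT18 was 0.049 and NME2 0.065 under quantile normalization. CDH1 was -0.013 under median scaling. Without replicate 1 of both groups UMPS was 0.03, GCLM 0.014 and CDH1 -0.332. With single arrays left out, TK1 ranged from -0.063 to 0.018, UMPS from -0.036 to 0.026 and CDH1 from -0.294 to 0.175. Relative to the median of all measured genes, group medians with a change of sign were those of Wnt targets (0.001) and matrix metalloproteinases (-0.082) under normexp, mitochondrial ribosomal proteins (0.011) under quantile normalization and base excision repair (0.014) without replicate 1. The causes were not tested.

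In this paragraph a call rests on the adjusted p of a single fit, that of all 18 arrays or that of the alternative. Over named genes and alternatives, 4540 values kept direction and such a call, 77 lost it, 6 gained it and 19 changed sign. Some of the 77, among them values of UNG and RRM2, belong to genes that did not pass both fits and were not called above. Under spike-in scaling, after its shift was taken off, the calls of MCM10, CDK2, EIF4A2, KRT18, CMPK1, NME1, APEX1, FANCC, FANCI and MAP2K4 were lost (adjusted p from 0.0546 to 0.0931). GPC3 and ANPEP were called lower without the replicate 1 arrays (-0.636 with adjusted p = 7.74e-05, and -0.721 with adjusted p = 0.00221). HPD lost its call without each single array (adjusted p from 0.0537 to 0.119). MX1 lost it without the control of replicate 1 (adjusted p = 0.055) and without 5-FU replicate 2 (0.0608), CYP7A1 without the control of replicate 2 (0.0517), and H19 without both replicate 1 arrays (0.13). In data simulated with independent noise on each array, 200 of 29894 probes were given a change. There the fit of all 18 arrays recovered 35% of changes of 0.5 and 70% of changes of 1 (log2). With 1 array kept of each near-identical set, which left 12, the shares were 4% and 47%. The fit of the real arrays called 14403 probes, so that the adjustment was stricter in the simulation. These shares therefore do not carry over to the real data. The fit with averaged arrays was not itself simulated. The number of arrays limits the precision.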

Other observations

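Among genes of steroid and fatty acid turnover, the 17β-hydroxysteroid dehydrogenase family divided. Of 11 measured members 5 rose and 3 fell, with a median of 0.643. HSD17B14 changed by 1.69 and HSD17B1, which makes estradiol, by 1.06, whereas HSD17B8 changed by -2.84, HSD17B3, which makes testosterone, by -0.96 and HSD17B4, a peroxisomal enzyme of fatty acid oxidation, by -0.52.

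Genes of epithelial and mesenchymal state did not move as a group. Of 25 measured genes 3 rose and 3 fell, with a median of -0.013. OCLN (occludin), a tight junction protein, changed by 1.26 and S100A4 by 1.03, and VIM (vimentin) by -0.63. Of 15 matrix metalloproteinases and inhibitors MMP7 (matrilysin) was the only gene called, with a change of 1.76. Of 14 Wnt targets and feedback genes none was called in both limma fits, 3 passed the fit of all 18 arrays (1 higher, 2 lower), 4 were at an unadjusted p under 0.05, and the median was -0.094.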
